A study of Mus musculus with 24 samples.

Results

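Mitochondrial protein import and proteostasis genes encode the machinery that brings proteins made in the cytosol into mitochondria, folds them there and removes those that fail. The 40 members were listed by their role in the machinery, and 34 of them were among the 17097 genes that the arrays measured and the gene table named. Tomm40, Gfer, Timm8a1, Timm13, Hspd1 and Clpx were not analysed here. Values were log2 intensities, and every group mean of all 34 members reached 5.51, the midpoint of all gene values on the arrays, so none was set aside for low signal. A difference was called when limma's moderated test gave an adjusted p (Benjamini-Hochberg over all genes) under 0.05. By 24 h of stimulation 32 of the 34 had risen in Raptor-deficient cells (21.6% of all genes) and 32 in wild-type cells (25.4% of all genes). Raptor-deficient cells reached lower levels than wild type, with 19 members lower at 8 h and 17 at 24 h, where 8.77% and 13.1% of all genes were lower, and 0 members higher at either time.

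The study measured RNA in naive CD4 T cells of mice, sorted from spleen and lymph nodes as CD4+CD62LhiCD44loCD25-, on Affymetrix HT MG-430 PM arrays. Raptor-deficient cells came from CD4(cre)Raptor(fl/fl) mice, in which Cre recombinase driven by the Cd4 promoter deletes a floxed part of Rptor in T cells, and wild-type cells came from C57BL/6 mice. The strain of the Raptor-deficient mice and the age of all mice are not given in the labels. Each genotype was sampled without stimulation and at 8 h and 24 h of culture on plate-bound anti-CD3 and anti-CD28, which engage the T cell receptor complex and its costimulator. That gave 6 groups of 4 samples and 24 arrays. Whether the 4 samples of a group are separate mice is not stated, and the p-values then reflect only how much these samples scatter, which may be technical. Amplification of 20 ng of RNA from every sample means that a level is relative to the total RNA of that sample, and fewer cells of a type and less RNA per cell cannot be told apart.

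Nearly all mitochondrial proteins are made in the cytosol as precursors. The TOM complex is their entry gate in the outer membrane. From there the TIM23 complex and its motor pull presequence proteins into the matrix, the TIM22 complex inserts carrier proteins into the inner membrane with the help of small TIM chaperones, and Chchd4 traps small proteins in the intermembrane space by oxidising their cysteines. Peptidases remove the presequence, chaperones such as Hsp60 with its lid Hspe1 fold the product, and proteases such as Lonp1 and ClpXP degrade misfolded proteins. Raptor holds together mTORC1, a kinase complex that promotes cell growth and the making of mitochondrial proteins. T cells leaving quiescence enlarge their mitochondrial mass, which calls on this machinery.

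Rptor itself had log2 intensities of 5.92, 7.37, 6.55 and 6.79 in unstimulated Raptor-deficient cells, against 7.04, 7.49, 7.19 and 7.39 in wild-type cells, groups that overlapped and were not called (adjusted p = 0.075). After 8 h it averaged 6.49 ± 0.22 in Raptor-deficient and 7.51 ± 0.04 in wild-type cells (SD, 2.02-fold lower, adjusted p = 0.000292). The 24 h means were 6.45 ± 0.15 in Raptor-deficient and 7.08 ± 0.13 in wild-type cells (1.56-fold lower, adjusted p = 0.0109). The files do not place its probes against the deleted part, so these values do not measure how complete the deletion was. The CD4 T cell markers (8 of 9 measured, Cd4 and Cd3e among them) all reached 5.51 in every group. Their log2 summed intensity was 12.96 to 13.08 in Raptor-deficient and 13.24 to 13.38 in wild-type cells at 8 h, and 13.52 to 13.62 in Raptor-deficient and 13.51 to 13.63 in wild-type cells at 24 h. Unstimulated Raptor-deficient replicate 1 stood apart, with a residual SD over all genes of 0.323. Replicates 2, 3 and 4 of its group had 0.257, 0.238 and 0.196, and arrays of the other groups 0.138 to 0.198. The lowest correlation between replicates was 0.978 in unstimulated Raptor-deficient cells and at least 0.992 in every other group. That whole group therefore scattered more, which leaving out replicate 1 alone does not remove. Replicate 1 of both 24 h groups stood out for Alb, the liver's albumin gene, at 9.11 in the Raptor-deficient and 9.02 in the wild-type sample, while the other samples lay between 6.14 and 6.71. Other liver genes were high at 24 h too. Apoa1, Apoa2 and Ttr reached 7.82, 7.95 and 7.93 in Raptor-deficient and 7.67, 7.72 and 7.74 in wild-type cells. The log2 sum of the 5 liver markers reached 10.33 in Raptor-deficient and 10.18 in wild-type cells at 24 h. In the unstimulated and 8 h groups it was at most 7.82.

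The members' rise with stimulation was large in both genotypes. At 8 h over unstimulated cells, 31 of 34 members rose in Raptor-deficient cells (16% of all genes were called higher) and 32 of 34 in wild-type cells (18.9% of all genes). In either genotype 0 members fell, while 16.8% of all genes fell in Raptor-deficient and 20.8% in wild-type cells. The median change over the members was 0.89 on the log2 scale in Raptor-deficient and 1.24 in wild-type cells, against 0.00 and -0.03 over all genes. A rise of at least 2-fold was seen in 12 members in Raptor-deficient and 21 in wild-type cells, against 714 and 1149 of all 17097 genes. At 24 h over unstimulated cells, 32 members rose in Raptor-deficient cells (21.6% of all genes, with 17.5% lower) and 32 in wild-type cells (25.4%, with 24.3% lower). The medians were 1.05 in Raptor-deficient and 1.33 in wild-type cells, against -0.01 and -0.03 over all genes. Rises of at least 2-fold were seen in 19 and 23 members, against 1216 and 1913 of all 17097 genes. The 8 h and 24 h responses of a genotype share their unstimulated samples. By sample, the median over the 34 members was 7.95 to 8.17 in Raptor-deficient and 7.91 to 8.09 in wild-type unstimulated cells, 8.67 to 8.76 in Raptor-deficient and 9.03 to 9.11 in wild-type cells at 8 h, and 8.95 to 9.18 in Raptor-deficient and 9.18 to 9.31 in wild-type cells at 24 h. Every Raptor-deficient sample lay below every wild-type sample of its time after stimulation, though the closest 24 h samples nearly touched, while the unstimulated samples overlapped.

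**Figure D1:**
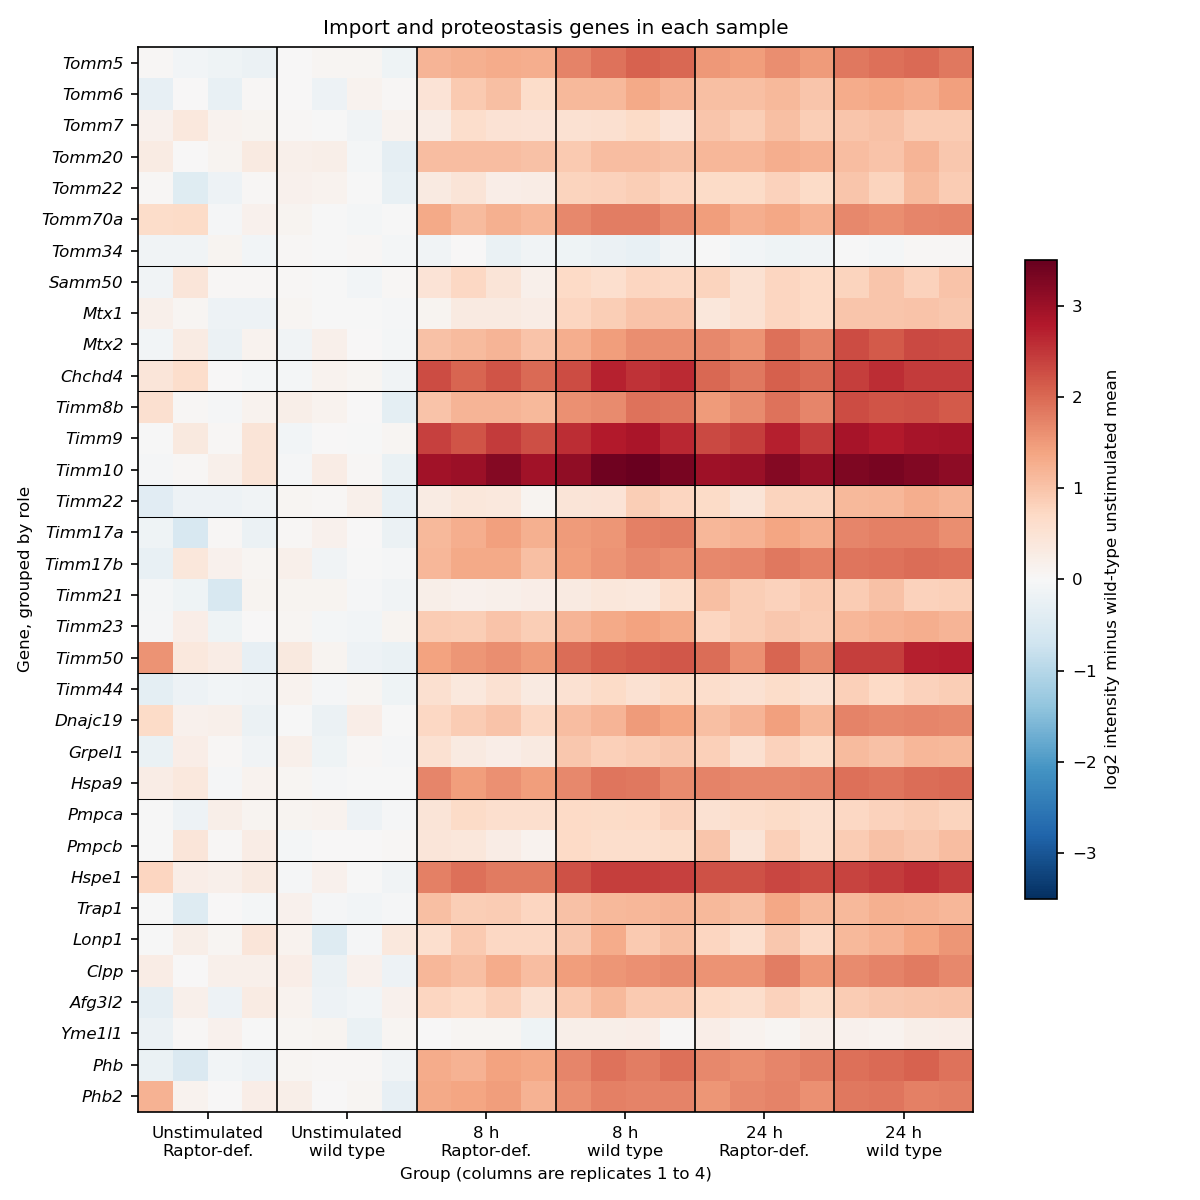
Each cell is 1 sample's log2 intensity of 1 gene minus that gene's mean in unstimulated wild-type cells (colour, blue lower and red higher); rows are the 34 measured members by role and columns are replicates 1 to 4 of each group. Timm10, Timm9, Chchd4, Hspe1 and Timm50 darken the most in wild-type columns with stimulation, Tomm34 and Yme1l1 stay pale, and the Raptor-deficient columns are paler than the wild-type columns at 8 h and 24 h for most rows.

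The small TIM chaperones Timm10 and Timm9, which escort carrier precursors across the intermembrane space, had the 2 largest rises in both genotypes and at both times with the brightest probe set of each gene. With the mean of both Timm9 probe sets its rises were 1.76 at 8 h and 1.57 at 24 h in Raptor-deficient cells and 2.14 and 1.81 in wild-type cells, each below that of Chchd4, the oxidising import receptor, in that setting. Timm10 rose by 2.86 at 8 h in Raptor-deficient cells and by 3.33 in wild-type cells, and at 24 h by 2.90 in Raptor-deficient (adjusted p = 2.74e-17) and 3.24 in wild-type cells (SE 0.11, adjusted p = 1.36e-18). Its values were 5.97, 6.07, 6.19 and 6.47 in Raptor-deficient and 5.98, 6.26, 6.05 and 5.77 in wild-type unstimulated cells, and every stimulated sample of either genotype was above 8.9. Timm9 rose by 2.27 in Raptor-deficient and 2.87 in wild-type cells at 24 h. Chchd4, Hspe1 and Timm50, the receptor of the TIM23 complex, came next in wild-type cells at 24 h, with 2.48, 2.45 and 2.58, against 1.73, 1.89 and 1.34 in Raptor-deficient cells. Pmpcb rose in wild-type cells at 8 h (0.64) and was not called in Raptor-deficient cells (0.13, adjusted p = 0.373).

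Tomm34, a cytosolic co-chaperone of import precursors, and Yme1l1, the protease of the inner membrane that faces the intermembrane space, were the only members not called in either genotype at either time. Tomm34 differed from unstimulated cells by -0.06 in Raptor-deficient and -0.18 in wild-type cells at 8 h, and by -0.04 in Raptor-deficient and 0.00 in wild-type cells at 24 h. The wild-type 8 h value had an adjusted p of 0.0522 and was called lower in 12 of 33 alternative settings. Yme1l1 differed by 0.01 in Raptor-deficient and 0.17 in wild-type cells at 8 h, and by 0.16 and 0.18 for the same genotypes at 24 h.

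Promoter sequences of 4 members are shown because these genes rose in both genotypes and mark the extremes of the data: Timm10 and Timm9 rose the most with their brightest probe sets, Hspe1 was the 1 member called higher in unstimulated Raptor-deficient cells, and Tomm5 was the member lowered the most at 8 h. Each is the 250 bases before the start that RefSeq's promoter table (GRCm38.p6) gives for the gene, read 5′ to 3′ on the gene's strand. For Timm9 that start lies inside the gene's annotated span, so 33 bases of its window do too, while the other 3 windows end at the edge of the span. Capitals mark matches, on either strand, to the Myc and Max E-box CACGTG, the ETS family motif CCGGAAG or the heat shock element core GAANNTTC.
Timm10 (chr2:84826771-84827020, plus strand): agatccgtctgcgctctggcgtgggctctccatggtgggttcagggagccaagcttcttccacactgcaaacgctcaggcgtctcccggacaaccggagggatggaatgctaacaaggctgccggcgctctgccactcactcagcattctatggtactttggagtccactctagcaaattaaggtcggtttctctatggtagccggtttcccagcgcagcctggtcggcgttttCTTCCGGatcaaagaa
Timm9 (chr12:71136676-71136925, minus strand): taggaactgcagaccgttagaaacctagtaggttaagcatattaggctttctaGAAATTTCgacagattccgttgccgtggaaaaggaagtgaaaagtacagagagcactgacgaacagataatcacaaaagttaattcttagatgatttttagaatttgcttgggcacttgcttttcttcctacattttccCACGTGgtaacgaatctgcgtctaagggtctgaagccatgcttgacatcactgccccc
Hspe1 (chr1:55087898-55088147, plus strand): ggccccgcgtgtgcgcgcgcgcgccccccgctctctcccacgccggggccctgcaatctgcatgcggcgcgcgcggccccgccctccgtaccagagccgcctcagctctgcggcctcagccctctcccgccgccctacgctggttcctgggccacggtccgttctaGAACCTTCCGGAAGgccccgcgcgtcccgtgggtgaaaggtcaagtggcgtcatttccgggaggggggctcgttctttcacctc
Tomm5 (chr4:45108114-45108363, minus strand): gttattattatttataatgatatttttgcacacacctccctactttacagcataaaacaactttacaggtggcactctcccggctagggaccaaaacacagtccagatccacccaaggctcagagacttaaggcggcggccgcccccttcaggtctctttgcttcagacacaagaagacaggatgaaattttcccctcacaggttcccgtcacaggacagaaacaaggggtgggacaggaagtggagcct
The Timm10 match is to the ETS motif on the other strand, 16 bases before the start. In Timm9 the heat shock core lies 197 and the E-box 58 bases before the table's start. The Hspe1 window holds 1 heat shock core, 84 bases before the start, which overlaps 2 ETS matches that begin 80 and 77 bases before it, and of the 2 start windows of 300 bases that the table gives for Hspd1, the Hsp60 gene on the opposite strand, 1 shares 285 bases with that of Hspe1 and the other 4. The Tomm5 window held none of the 3 motifs.

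Of the 34 measured members, 30 had a promoter in the RefSeq table. A gene was counted when any of its windows held the motif. CCGGAAG was found in 14 of the 30 (46.7%), against 2115 of 27025 genes in the table (7.83%). The 14 were Tomm22, Tomm34, Tomm70a, Mtx1, Mtx2, Timm8b, Timm10, Timm23, Grpel1, Pmpca, Pmpcb, Hspe1, Yme1l1 and Phb2, so they included Timm10, with the largest rise, and Tomm34 and Yme1l1, which were not called. CACGTG was found in 4 of the 30 (13.3%; Tomm20, Timm9, Lonp1 and Phb), against 6.86% of all genes. GAANNTTC was found in 2 of the 30 (6.67%; Timm9 and Hspe1), against 7.73%. The 27025 genes include some that the arrays did not measure, and the shares among the 17097 measured genes were not counted. These are counts of letters in the window, and binding was not measured.

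In unstimulated cells 1 member, Hspe1, was called higher in Raptor-deficient than in wild-type cells, as were 0.702% of all genes, and 0 members were lower, against 1.24% of all genes. At an unadjusted p under 0.05 in limma, 7 members were higher and 3 lower. The share of all genes at that unadjusted cut was not counted, for this and for the later unadjusted counts. The median difference was 0.07, against -0.01 over all genes, and the members ran from -0.25 (Phb) to 0.47 (Timm50). Hspe1 had 10.32, 9.80, 9.75 and 9.89 in Raptor-deficient cells, against 9.54, 9.72, 9.56 and 9.45 in wild-type cells, all above, with a difference of 0.37 (SE 0.10, adjusted p = 0.0435). That call was lost in 23 of 33 alternative settings, and without Raptor-deficient unstimulated replicate 1 the difference was 0.24 with an adjusted p of 0.143. Replicate 1 was the highest of its group for 9 members and the lowest for 13. Timm50 had 7.10, 5.90, 5.79 and 5.25 in Raptor-deficient cells, against 5.87, 5.62, 5.35 and 5.31 in wild-type cells, so replicate 1 lay far above the other 3, and the difference was not called (adjusted p = 0.341). Phb2 had 10.34, 9.24, 9.15 and 9.37 in Raptor-deficient cells, again with replicate 1 far above, against 9.33, 9.16, 9.20 and 8.84 in wild-type cells (adjusted p = 0.24).

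At 8 h, 19 of 34 members were lower in Raptor-deficient than in wild-type cells (8.77% of all genes were called lower), and 0 were higher (4.14% of all genes). At an unadjusted p under 0.05 in limma 28 were lower and 0 higher, counts without a share of all genes beside them. All 4 Raptor-deficient samples lay below all 4 wild-type samples for 23 members (12.5% of all genes). The median difference was -0.37, against 0.01 over all genes, and the range was -0.68 (Tomm5) to 0.07 (Tomm34). At 24 h, 17 members were lower (13.1% of all genes) and 0 higher (8.35%), with 22 lower and 0 higher at an unadjusted p under 0.05, 23 entirely below (16.5% of all genes) and a median of -0.26, against 0.01 over all genes. Without replicate 1 of both 24 h groups, 13 members were lower at 24 h. No member differed by as much as 2-fold at any of the 3 times. Of the members, 14 were lower at both times, 5 were called at 8 h alone (Tomm22, Timm17b, Pmpcb, Hspe1 and Clpp), 3 at 24 h alone (Timm50, Hspa9 and Lonp1) and 12 at neither. The share of all genes in these classes was not counted. A call at 1 time alone reflects the cut and is not a tested difference between times. Hspa9, for example, had -0.21 at 8 h and -0.23 at 24 h. The genotype difference in the change from 8 h to 24 h was called for 0 members.

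Some markers of other cell types moved with genotype too. In unstimulated cells, where 1 member was called, only the myeloid list separated the genotypes. The 5 measured myeloid markers had a log2 summed intensity of 7.13 to 7.82 in Raptor-deficient and 6.81 to 7.01 in wild-type unstimulated cells, with no overlap. In these cells S100a9 averaged 6.32 in Raptor-deficient and 5.43 in wild type, and S100a8 4.71 and 3.95. Lyz2 had 3.74 and 3.60, Csf1r 5.45 and 5.41, and Itgam 2.76 and 2.80, in the same order. The 4 measured B cell markers summed to 6.90 to 7.79 in Raptor-deficient and 6.73 to 7.27 in wild-type unstimulated cells, which overlapped. They summed to 6.77 to 7.37 in Raptor-deficient and 6.43 to 6.72 in wild-type cells at 8 h, and 6.84 to 7.67 in Raptor-deficient and 6.50 to 6.80 in wild-type cells at 24 h. The myeloid markers summed to 7.33 to 7.91 in Raptor-deficient and 6.84 to 7.09 in wild-type cells at 8 h and to 6.92 to 7.33 in Raptor-deficient and 6.79 to 6.99 in wild-type cells at 24 h. The 2 measured erythroid markers summed to 7.46 to 8.63 in Raptor-deficient and 7.05 to 7.52 in wild-type cells at 8 h, which overlapped, and to 7.30 to 8.78 in Raptor-deficient and 6.84 to 7.25 in wild-type cells at 24 h, which did not. Cd79b, Ms4a1, Cd22, Lyz2, Itgam, S100a8 and Alas2 had group means under 5.51 in every group, while Cd79a, S100a9, Csf1r and Hba-a1 reached it in 1 or more groups. The 4 NK cell markers lay under it everywhere except Nkg7 in Raptor-deficient cells at 24 h, when their sum was 6.60 to 6.85 in Raptor-deficient and 6.15 to 6.53 in wild-type cells. These markers did not move together at 24 h. Nkg7 averaged 5.90 in Raptor-deficient and 5.21 in wild-type cells, and Ncr1 3.26 and 2.99. Klrb1c had 4.47 and 4.55 in the same order, and Klrk1 3.84 and 3.86. At 8 h the NK cell sums overlapped (6.19 to 6.35 in Raptor-deficient and 5.99 to 6.30 in wild-type cells). The 2 CD8 T cell markers summed to 6.63 to 7.02 in Raptor-deficient and 7.14 to 7.36 in wild-type cells at 8 h. They overlapped at 24 h (7.30 to 7.67 in Raptor-deficient and 7.40 to 7.79 in wild-type cells). In unstimulated cells the CD8 T cell, NK cell and erythroid sums overlapped between genotypes. Whether cells of these types differed in amount between genotypes, and their part in the lower member levels, was not tested.

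**Figure D2:**
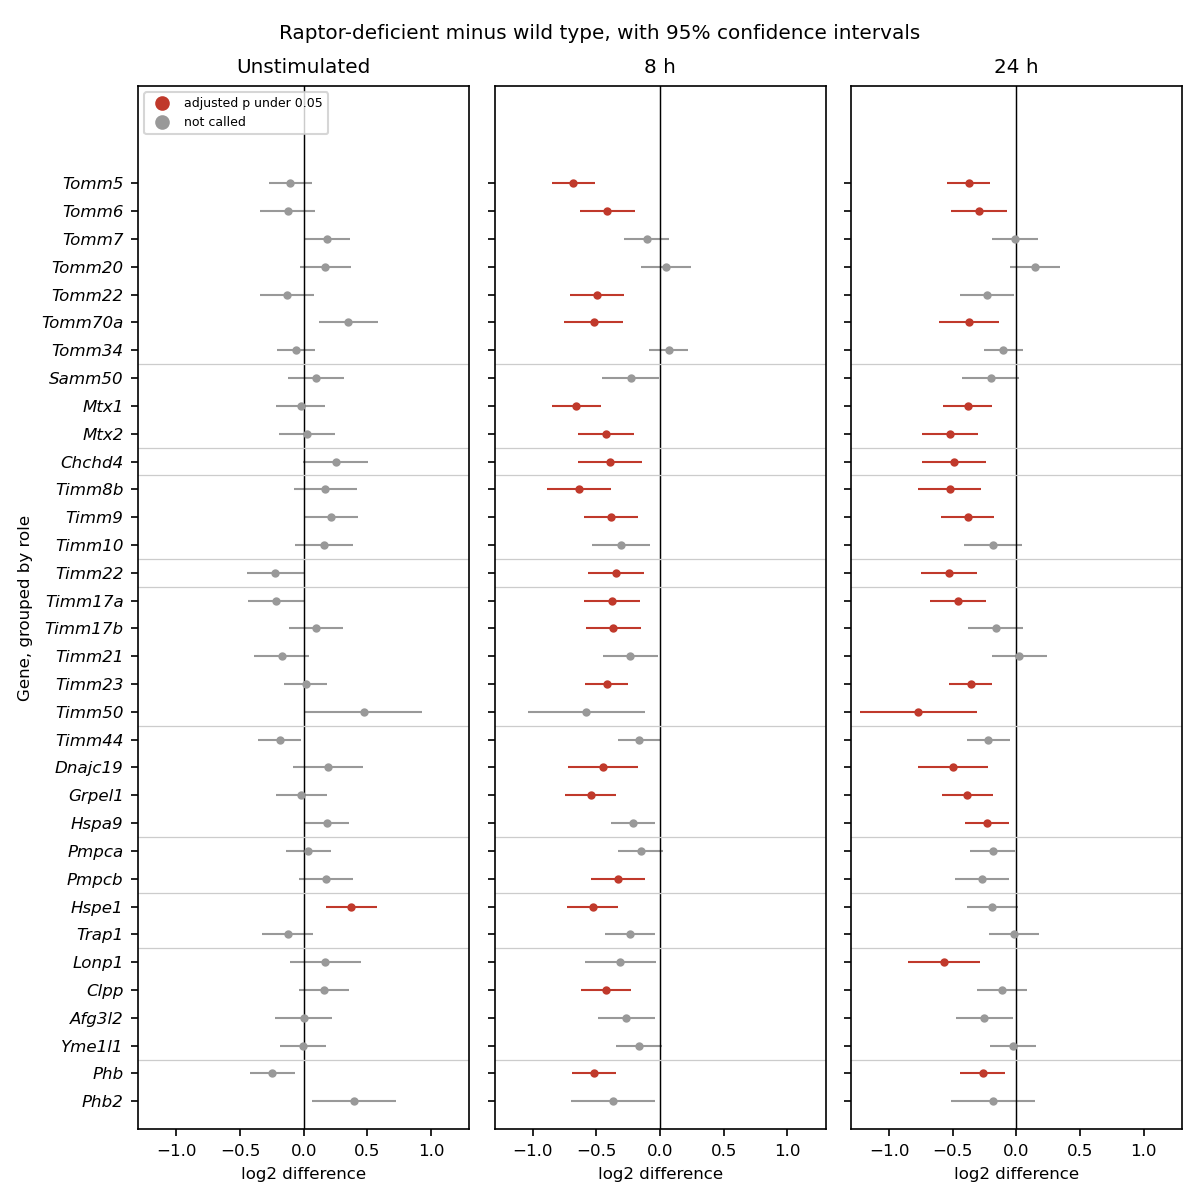
Points are log2 differences, Raptor-deficient minus wild type, of the 34 members at each time, with 95% confidence intervals from the limma fit (n = 4 per group); red points passed an adjusted p under 0.05. Nearly all points lie left of 0 at 8 h and 24 h, where 32 of 34 differences were negative, and on both sides of it in unstimulated cells, where 14 were.

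Among the 7 measured TOM and receptor genes, 4 were lower at 8 h and 3 at 24 h. Tomm5, a small subunit of the outer membrane gate, had the largest difference of all members at 8 h. It had 9.52, 9.57, 9.64 and 9.61 in Raptor-deficient cells at 8 h, against 10.08, 10.24, 10.40 and 10.34 in wild-type cells, a difference of -0.68 (SE 0.08, adjusted p = 2.14e-06). The 24 h values were 9.86, 9.79, 9.97 and 9.83 in Raptor-deficient cells, against 10.19, 10.26, 10.31 and 10.18 in wild-type cells (difference -0.38, adjusted p = 0.00123). The groups did not overlap at either time, whereas unstimulated values overlapped, at 8.12 to 8.38 in Raptor-deficient and 8.18 to 8.41 in wild-type cells. Tomm70a, the receptor for carrier precursors, was lower by a difference of -0.52 at 8 h and -0.37 at 24 h (adjusted p = 0.00216 and 0.0185). Averaged with its second probe set, which lies at a mean of 5.14, under the dim level of 5.51, Tomm70a differed by -0.17 and -0.14 and neither call held (adjusted p = 0.178 and 0.229). The 24 h call was also lost without Raptor-deficient 24 h replicate 2 or 4. Tomm22, the central receptor, was lower at 8 h (-0.49, adjusted p = 0.00151) and not called at 24 h (-0.23, adjusted p = 0.119), and the small subunit Tomm6 was lower at both (-0.42 and -0.29, adjusted p = 0.00767 and 0.046). The Tomm6 call at 24 h held in 19 of 33 alternatives and was lost after centring, with cyclic loess, and without any 1 wild-type or Raptor-deficient 24 h sample other than Raptor-deficient replicate 3.

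Tomm20, the presequence receptor, was not called at either time. It had 10.82, 10.81, 10.82 and 10.76 in Raptor-deficient cells at 8 h, against 10.66, 10.80, 10.81 and 10.76 in wild-type cells, groups that overlapped. The difference was 0.04 at 8 h (95% interval -0.15 to 0.24) and 0.14 at 24 h (-0.05 to 0.34). Tomm7, a small subunit, differed by -0.11 and -0.01, with intervals of -0.29 to 0.07 and -0.19 to 0.17.

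The outer membrane assembly genes insert barrel proteins into the outer membrane. Mtx1, a metaxin of that complex, had 8.15, 8.37, 8.39 and 8.33 in Raptor-deficient cells at 8 h, against 8.82, 8.93, 9.06 and 9.07 in wild-type cells, with no overlap (difference -0.66, adjusted p = 2.2e-05). Its rise at 8 h was 0.27 in Raptor-deficient and 0.90 in wild-type cells. At 24 h Mtx1 had 8.45, 8.60, 8.81 and 8.76 in Raptor-deficient cells, against 9.03, 9.04, 9.07 and 9.02 in wild-type cells (difference -0.38, adjusted p = 0.00338). Mtx2, the partner metaxin, had the largest difference of these genes at 24 h. It had 7.41, 7.50, 7.58 and 7.38 in Raptor-deficient cells at 8 h, against 7.66, 7.86, 8.01 and 8.02 in wild-type cells, and 8.07, 7.96, 8.32 and 8.14 in Raptor-deficient cells at 24 h, against 8.67, 8.53, 8.70 and 8.66 in wild-type cells, with no overlap at either time. The differences were -0.42 and -0.52 (adjusted p = 0.00774 and 0.000671). Samm50, the barrel-inserting subunit, was not called with its brightest probe set (-0.23 and -0.20, adjusted p = 0.182 and 0.209).

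**Figure D3:**
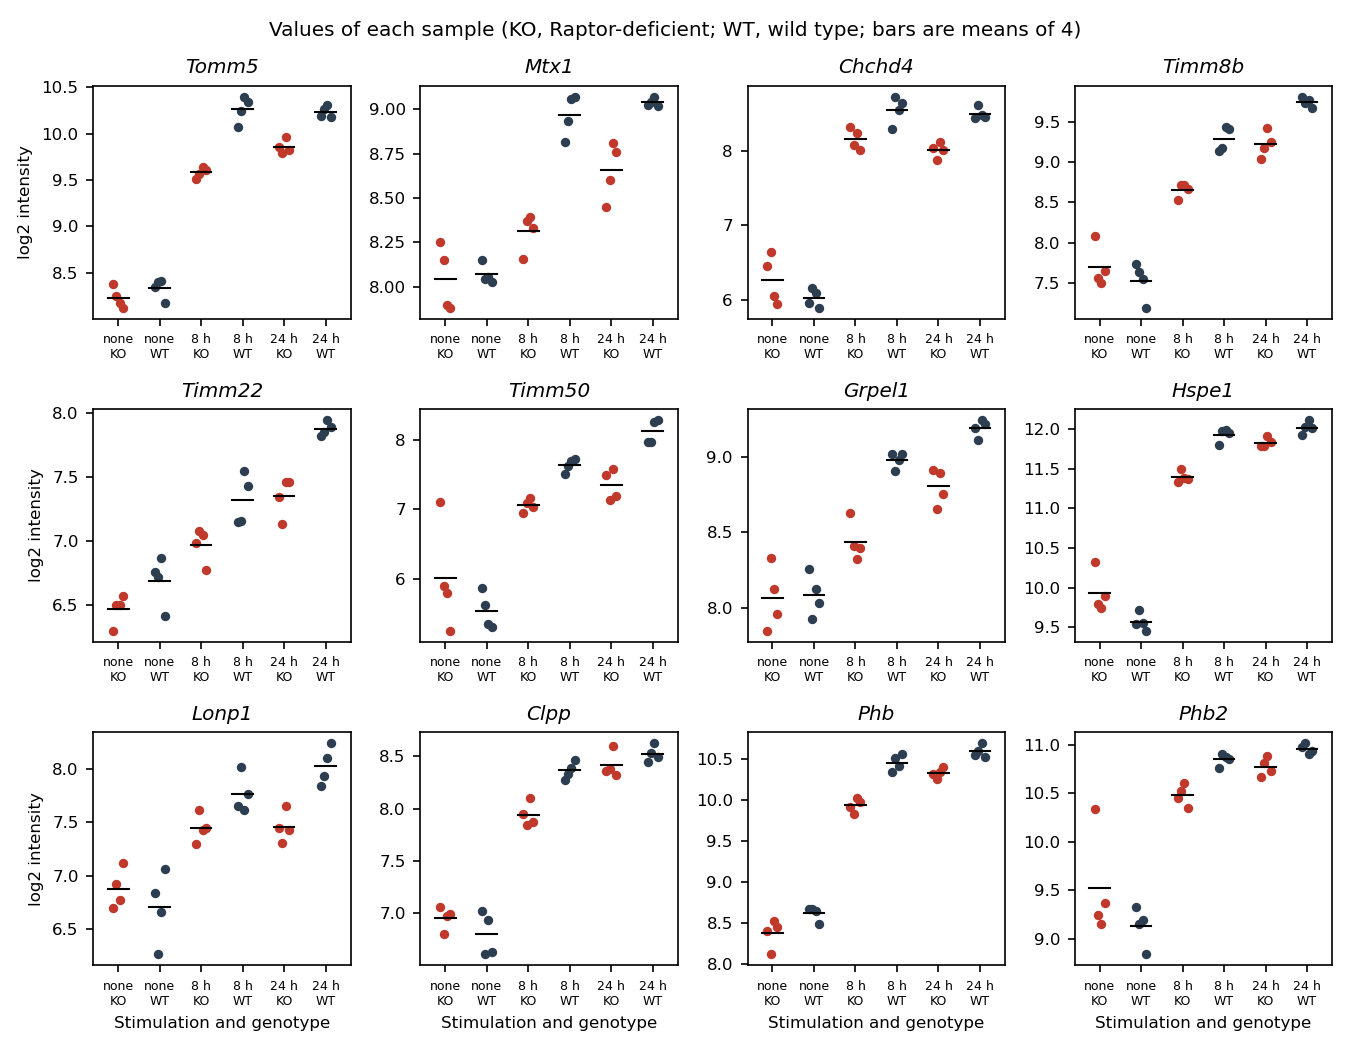
Points are the log2 intensities of single samples for 12 members, red for Raptor-deficient (KO) and dark blue for wild type (WT), unstimulated (none), at 8 h and at 24 h; bars are means of 4. Tomm5, Mtx1, Timm8b, Grpel1 and Phb show Raptor-deficient samples below all wild-type samples at 8 h and 24 h, and Timm50, Hspe1 and Phb2 show 1 high unstimulated Raptor-deficient sample, replicate 1.

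In the intermembrane space, Chchd4 had 8.32, 8.07, 8.23 and 8.00 in Raptor-deficient cells at 8 h, against 8.29, 8.72, 8.55 and 8.64 in wild-type cells. The groups overlapped in 1 pair of samples, and the difference was -0.39 (adjusted p = 0.0317, lost without any 1 of 5 of these 8 samples and with cyclic loess). At 24 h it had 8.03, 7.88, 8.11 and 8.00 in Raptor-deficient cells, against 8.43, 8.62, 8.48 and 8.46 in wild-type cells, with no overlap (difference -0.49, SE 0.12, adjusted p = 0.00414).

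Of the 3 measured small TIM chaperones, 2 were lower at both times. Timm8b, a small TIM related to Timm8a1, which was not analysed here, had 8.53, 8.71, 8.71 and 8.66 in Raptor-deficient cells at 8 h, against 9.14, 9.18, 9.44 and 9.42 in wild-type cells (difference -0.64, SE 0.12, adjusted p = 0.000573). Timm8b at 24 h had 9.03, 9.18, 9.42 and 9.25 in Raptor-deficient cells, against 9.81, 9.73, 9.76 and 9.67 in wild-type cells (difference -0.52, adjusted p = 0.00204). Neither time showed overlap. Timm9 was lower by differences of -0.39 and -0.38 (adjusted p = 0.0105 and 0.00678), and its partner in the same hexamer, Timm10, had -0.31 and -0.18 and was not called (adjusted p = 0.0669 and 0.277). With the mean of both Timm9 probe sets neither Timm9 call held, with -0.12 at 8 h (adjusted p = 0.558) and 0.02 at 24 h (adjusted p = 0.946), and the 24 h call was also lost without replicate 1 of both 24 h groups. Timm10 at 8 h was called lower in 7 of the 33 alternatives, among them the fit without Raptor-deficient unstimulated replicate 1 (adjusted p = 0.0478).

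Timm22, the channel of the carrier translocase, had 6.98, 7.08, 7.05 and 6.78 in Raptor-deficient cells at 8 h, against 7.15, 7.16, 7.55 and 7.43 in wild-type cells (difference -0.35, adjusted p = 0.0285). By 24 h it had 7.35, 7.14, 7.47 and 7.46 in Raptor-deficient cells, against 7.82, 7.86, 7.95 and 7.89 in wild-type cells (difference -0.53, adjusted p = 0.000566). The groups were separate at both times. With the mean of its 2 probe sets, of which the second lies at a mean of 4.92, the differences were -0.16 and -0.14 and neither was called (adjusted p = 0.23 and 0.227). The 8 h call was also lost with cyclic loess and without Raptor-deficient 8 h replicate 1 or 4 or wild-type 8 h replicate 3 or 4. Unstimulated Timm22 had 6.29, 6.50, 6.50 and 6.57 in Raptor-deficient and 6.75, 6.72, 6.87 and 6.42 in wild-type cells (difference -0.22, adjusted p = 0.353). The change with stimulation itself differed between genotypes by -0.13 at 8 h and -0.31 at 24 h, which were not called (adjusted p = 0.709 and 0.209).

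Of the 5 measured TIM23 genes, 3 were lower at 8 h and 3 at 24 h. Timm23, the channel, had 9.91, 9.87, 10.02 and 9.89 in Raptor-deficient cells at 8 h, against 10.22, 10.36, 10.43 and 10.35 in wild-type cells, and 9.76, 9.88, 9.97 and 9.90 in Raptor-deficient cells at 24 h, against 10.20, 10.24, 10.29 and 10.21 in wild-type cells. Its differences were -0.42 and -0.36 (adjusted p = 0.000837 and 0.00203), with no overlap at either time. Timm50 had the largest difference of all members at 24 h. It had 7.49, 7.13, 7.58 and 7.19 in Raptor-deficient cells, against 7.96, 7.97, 8.26 and 8.28 in wild-type cells (difference -0.77, SE 0.22, adjusted p = 0.013). At 8 h Timm50 had 6.94, 7.08, 7.16 and 7.03 in Raptor-deficient cells, against 7.50, 7.62, 7.69 and 7.72 in wild-type cells, again with no overlap. That difference of -0.58 was not called (adjusted p = 0.0935), while without Raptor-deficient unstimulated replicate 1 it was called at the same size (adjusted p = 0.0033), as it was with the 8 h samples alone in the fit (0.000666).

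Timm17a and Timm17b are alternative subunits of the TIM23 channel. Timm17a had 9.81, 9.95, 10.10 and 9.92 in Raptor-deficient cells at 8 h, against 10.17, 10.21, 10.44 and 10.47 in wild-type cells, and 9.84, 9.89, 10.06 and 9.96 in Raptor-deficient cells at 24 h, against 10.39, 10.44, 10.45 and 10.30 in wild-type cells. It was lower at both times (differences -0.38 and -0.46, adjusted p = 0.0176 and 0.00247). Timm17b had 8.98, 9.14, 9.14 and 8.87 in Raptor-deficient cells at 8 h, against 9.27, 9.39, 9.50 and 9.45 in wild-type cells, and 9.49, 9.53, 9.68 and 9.59 in Raptor-deficient cells at 24 h, against 9.69, 9.73, 9.78 and 9.73 in wild-type cells. It was lower at 8 h (-0.37, adjusted p = 0.0178) and not called at 24 h (-0.16, adjusted p = 0.323), although its samples did not overlap there. With cyclic loess both 8 h calls were lost, as was that of Timm17a without Raptor-deficient 8 h replicate 1 or wild-type 8 h replicate 3 or 4, and that of Timm17b without Raptor-deficient 8 h replicate 1 or 4 or wild-type 8 h replicate 3. Whether the 2 genes differ from each other in these differences was not tested. Timm21, which joins the TIM23 complex, had differences of -0.23 and 0.02 and was not called.

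The import motor pulls the precursor chain into the matrix. Grpel1, the nucleotide exchange factor of the motor's Hsp70, had 8.63, 8.41, 8.32 and 8.39 in Raptor-deficient cells at 8 h, against 9.02, 8.91, 8.98 and 9.02 in wild-type cells (difference -0.55, SE 0.10, adjusted p = 0.000305). The 24 h values were 8.92, 8.66, 8.89 and 8.76 in Raptor-deficient cells, against 9.20, 9.11, 9.25 and 9.22 in wild-type cells (difference -0.39, adjusted p = 0.00431). Every Raptor-deficient sample was below every wild-type sample at both times. Hspa9, the Hsp70 itself, was lower at 24 h (-0.23, adjusted p = 0.0486), a call kept in only 11 of 33 alternatives, and had -0.21 at 8 h (adjusted p = 0.107). Timm44, which tethers it to the channel, had -0.17 and -0.22 and was not called (adjusted p = 0.21 and 0.0547).

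Dnajc19, the J protein that stimulates the motor's Hsp70, had 8.80, 8.96, 9.20 and 8.91 in Raptor-deficient cells at 24 h, against 9.49, 9.45, 9.48 and 9.44 in wild-type cells (difference -0.50, adjusted p = 0.00783). At 8 h it had 8.50, 8.65, 8.77 and 8.49 in Raptor-deficient cells, against 8.84, 8.96, 9.27 and 9.14 in wild-type cells (difference -0.45, adjusted p = 0.0238). The groups did not overlap at either time. These values rest on the brightest of its 3 probe sets, and the other 2 ran the other way at 24 h. Their differences were 0.28 (adjusted p = 0.0819 among the 28898 probe sets with 1 gene symbol) and 0.47 (adjusted p = 0.0257). With stimulation for 24 h those 2 probe sets changed by -0.19 and -0.75 in Raptor-deficient and by -0.52 and -0.81 in wild-type cells, against rises of 1.01 in Raptor-deficient and 1.70 in wild-type cells with the brightest. Averaged over its probe sets, Dnajc19 differed between genotypes by -0.14 at 8 h (adjusted p = 0.231) and by 0.09 at 24 h (adjusted p = 0.465). The 8 h call was also lost with cyclic loess and without any 1 of 4 of the 8 h samples, and the 24 h call without replicate 1 of both 24 h groups.

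Pmpca and Pmpcb form the peptidase that cuts off presequences, with Pmpcb as the catalytic subunit. Pmpcb had 8.13, 8.11, 7.98 and 7.84 in Raptor-deficient cells at 8 h, against 8.39, 8.33, 8.31 and 8.35 in wild-type cells (difference -0.33, adjusted p = 0.03, lost with cyclic loess and without any 1 of 6 of these 8 samples). By 24 h Pmpcb had 8.68, 8.15, 8.53 and 8.31 in Raptor-deficient cells, against 8.60, 8.72, 8.63 and 8.78 in wild-type cells, with 1 Raptor-deficient sample inside the wild-type range (-0.27, adjusted p = 0.0628). Pmpca had 8.53, 8.77, 8.68 and 8.67 in Raptor-deficient cells at 8 h, against 8.80, 8.77, 8.78 and 8.90 in wild-type cells, and 8.62, 8.72, 8.76 and 8.67 in Raptor-deficient cells at 24 h, against 8.81, 8.89, 8.96 and 8.87 in wild-type cells. At 8 h the groups nearly touched but did not overlap, nor did they at 24 h, and the differences of -0.15 and -0.19 were not called (adjusted p = 0.298 and 0.13).

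Of the 2 measured matrix chaperones, Hspe1 was lower in Raptor-deficient cells at 8 h, opposite to its unstimulated difference of 0.37. It had 11.33, 11.50, 11.38 and 11.38 in Raptor-deficient cells at 8 h, against 11.80, 11.97, 11.99 and 11.95 in wild-type cells, a difference of -0.53 (SE 0.10, adjusted p = 0.000424). Hspe1 at 24 h had 11.79, 11.78, 11.91 and 11.84 in Raptor-deficient cells, against 11.93, 12.03, 12.12 and 12.01 in wild-type cells. The samples did not overlap, and the difference of -0.19 was not called (adjusted p = 0.191). Trap1, the Hsp90 of the matrix, had -0.24 and -0.02 and was not called (adjusted p = 0.111 and 0.923), though its second probe set was lower at both times (-0.40 and -0.39, adjusted p = 0.011 and 0.0084 in the probe set fit).

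Of the 4 measured proteases 1 was lower at each time, Clpp at 8 h and Lonp1 at 24 h. Clpp, the proteolytic subunit of ClpXP, had 7.95, 7.85, 8.10 and 7.87 in Raptor-deficient cells at 8 h, against 8.27, 8.33, 8.39 and 8.46 in wild-type cells (difference -0.42, adjusted p = 0.00307), with no overlap. With the mean of its probe sets that difference was -0.31 and not called (adjusted p = 0.161). By 24 h Clpp had 8.36, 8.37, 8.60 and 8.32 in Raptor-deficient cells, against 8.45, 8.53, 8.63 and 8.49 in wild-type cells, which overlapped (-0.11, adjusted p = 0.486). Lonp1, the ATP-dependent matrix protease, had 7.30, 7.62, 7.43 and 7.44 in Raptor-deficient cells at 8 h, against 7.65, 8.02, 7.62 and 7.76 in wild-type cells, which overlapped (-0.31, adjusted p = 0.144). At 24 h Lonp1 had 7.45, 7.31, 7.66 and 7.43 in Raptor-deficient cells, against 7.84, 7.93, 8.10 and 8.24 in wild-type cells, entirely below (difference -0.57, SE 0.14, adjusted p = 0.00287). The change from 8 h to 24 h did not pass the test of a difference between genotypes for either gene (0.31 for Clpp, adjusted p = 0.268, and -0.26 for Lonp1, adjusted p = 0.659). Afg3l2, a subunit of the inner membrane protease that faces the matrix, had -0.27 and -0.25 and was not called (adjusted p = 0.115 and 0.104), and Yme1l1 had -0.17 and -0.03.

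Phb and Phb2 encode the prohibitins, which form 1 ring-shaped scaffold of the inner membrane. Phb had 9.91, 9.83, 10.02 and 9.98 in Raptor-deficient cells at 8 h, against 10.34, 10.51, 10.41 and 10.56 in wild-type cells (difference -0.52, SE 0.09, adjusted p = 0.000121). At 24 h it had 10.32, 10.25, 10.34 and 10.40 in Raptor-deficient cells, against 10.54, 10.60, 10.69 and 10.53 in wild-type cells (difference -0.26, adjusted p = 0.0269). Both times were without overlap. The 24 h call of Phb was lost with cyclic loess, without replicate 1 of both 24 h groups, and without Raptor-deficient 24 h replicate 1 or 2 or wild-type 24 h replicate 2 or 3. Phb2 had 10.45, 10.52, 10.61 and 10.35 in Raptor-deficient cells at 8 h, against 10.76, 10.90, 10.87 and 10.86 in wild-type cells, and 10.67, 10.81, 10.88 and 10.73 in Raptor-deficient cells at 24 h, against 10.98, 11.02, 10.90 and 10.94 in wild-type cells. Its differences of -0.37 and -0.19 were not called (adjusted p = 0.143 and 0.486), again without overlap, and without Raptor-deficient unstimulated replicate 1 the 8 h difference was called (adjusted p = 0.00458). Its second probe set was lower at both times (-0.38 and -0.29, adjusted p = 0.0163 and 0.0478 in the probe set fit).

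The rise itself was compared between genotypes by an interaction term. At 8 h the rise was smaller in Raptor-deficient cells for 15 of 34 members (4.36% of all genes) and larger for 0 (1.94%), with a median difference of -0.44, against 0.02 over all genes, and 23 smaller and 0 larger at an unadjusted p under 0.05. At 24 h it was smaller for 12 (8.01% of all genes) and larger for 0 (5.26%), with a median of -0.30, against 0.02, and 17 smaller and 0 larger unadjusted. These tests share samples with the genotype differences above and are no separate evidence. Hspe1 rose by 1.46 in Raptor-deficient and by 2.36 in wild-type cells at 8 h, a difference of -0.90 (SE 0.14, adjusted p = 0.000245). Without Raptor-deficient unstimulated replicate 1 that difference was -0.78 (adjusted p = 0.000103). Timm50 rose by 1.34 in Raptor-deficient and 2.58 in wild-type cells at 24 h, a difference of -1.24 (SE 0.32, adjusted p = 0.00841), which was -0.88 without that replicate (adjusted p = 0.00328) and -0.80 with the mean of its probe sets (adjusted p = 0.0323). At 8 h the Timm50 difference was -1.05, called in 9 of 33 alternatives, and -0.68 without that replicate, a change of over 1.5 times. The corresponding Phb2 difference at 8 h was -0.76, and -0.49 without it. Without that replicate the 8 h differences of Dnajc19 (-0.48, adjusted p = 0.0693) and Hspa9 (-0.37, adjusted p = 0.0711) were no longer called. With the mean of their probe sets the differences of Tomm70a (-0.20 at 8 h and -0.17 at 24 h), Timm9 (-0.38 and -0.24) and Dnajc19 (-0.33 and -0.10) were not called. The 8 h differences of Clpp (adjusted p = 0.163) and Timm50 were not called with that mean either. In all 33 alternatives, 4 of the 15 calls at 8 h and 6 of the 12 at 24 h held. Leaving out wild-type 8 h replicate 2 or 3, wild-type unstimulated replicate 4 or Raptor-deficient 8 h replicate 4 lowered the 8 h count of 15 to 9, 9, 9 and 8.

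**Figure D4:**
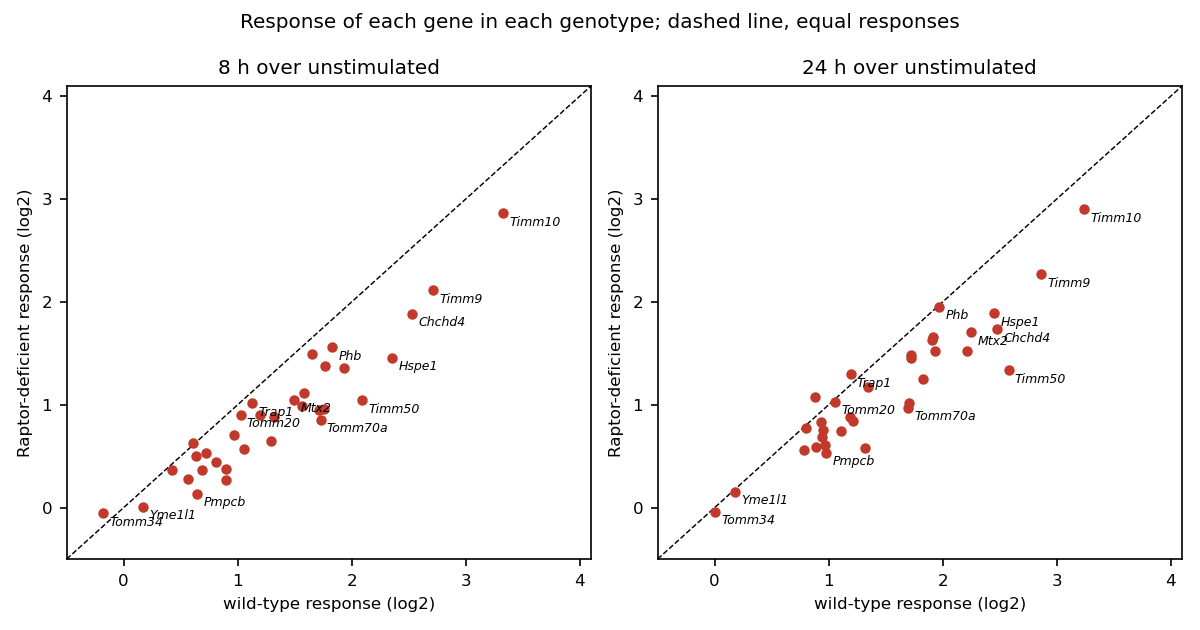
Each point is 1 of the 34 members, with its log2 change over unstimulated cells in Raptor-deficient cells (vertical) against that in wild-type cells (horizontal), at 8 h (left) and 24 h (right). At each time 32 of the 34 points lie below the dashed line of equal change; the exceptions are Tomm34 and Timm44 at 8 h and Timm21 and Trap1 at 24 h.

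Between 8 h and 24 h, 16 members rose further in Raptor-deficient cells (15.2% of all genes) and 8 in wild-type cells (17.4% of all genes), and 0 fell in either, against 7.81% and 11% of all genes. The medians were 0.28 and 0.15, against -0.01 and -0.01 over all genes. The largest further rises were those of Timm21 (0.72) in Raptor-deficient and Mtx2 (0.75) in wild-type cells. The difference between genotypes in this step was called for 0 members in limma (4.53% of all genes were called in either direction), with 5 at an unadjusted p under 0.05, all larger in Raptor-deficient cells, and a median of 0.10. Hspe1 had the largest of these, with a further rise of 0.43 in Raptor-deficient and 0.09 in wild-type cells (difference 0.34, adjusted p = 0.213).

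Of the 34 members, 21 had over 1 probe set, 64 probe sets in all. For the members called lower at 8 h, 7 of 11 further probe sets ran the same way, 5 of them called, and 0 were called the other way. At 24 h, 6 of 11 ran the same way, 4 of them called, and 2 were called the other way, 1 of Dnajc19 and 1 of Timm9. The second Timm9 probe set was higher in Raptor-deficient cells by 0.42 (adjusted p = 0.0408 over all probe sets with 1 gene symbol). The change of the second over unstimulated cells at 24 h was 0.88 in Raptor-deficient and 0.76 in wild-type cells. Samm50's second probe set was lower at both times, with differences of -0.43 (adjusted p = 0.00058) and -0.40 (adjusted p = 0.000556). Of the 4 Tomm20 probe sets, the third brightest was lower at 24 h (-0.41, adjusted p = 0.0278), while the other 3 lay between 0.07 and 0.14. The files do not say which transcript form each probe set reads.

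**Figure D5:**
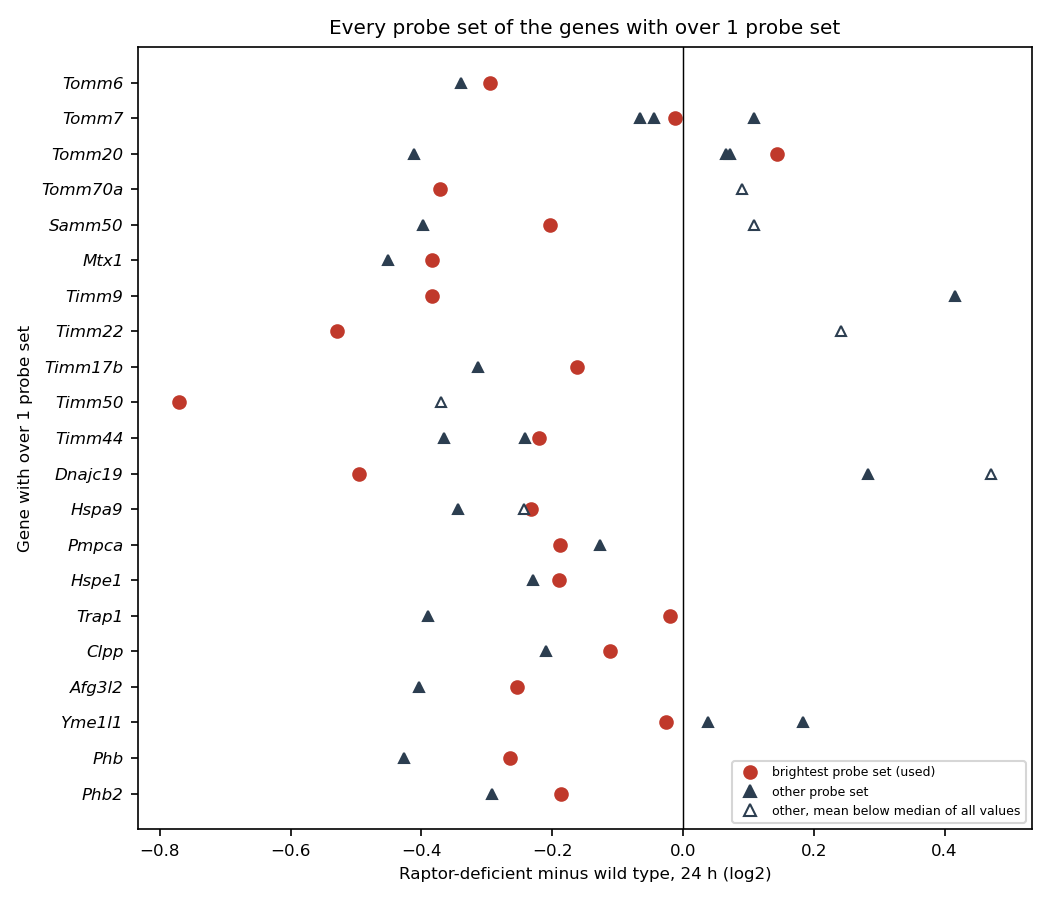
Each row is 1 of the 21 members with over 1 probe set, and points are the log2 differences at 24 h, Raptor-deficient minus wild type, of every probe set; red circles are the brightest probe set, used for the gene, triangles the others, open where their mean lies below 5.51. Dnajc19 and Timm9 have triangles at 0.28 or above against circles below 0, and most other rows stay on 1 side of 0.

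Other genes of import and mitochondrial quality control outside the 40 were read from a list of 28, of which 26 were measured and Immp2l and Hscb not analysed here. At 8 h, 10 of the 26 were lower in Raptor-deficient cells and 0 higher, against 8.77% and 4.14% of all genes. At 24 h 9 were lower and 0 higher, against 13.1% and 8.35% of all genes. The medians were -0.23 and -0.21. Dnajc15, an inner membrane J protein related to Dnajc19, was already lower in unstimulated cells. It had 7.86, 7.92, 8.23 and 8.26 in Raptor-deficient cells, against 9.57, 9.45, 9.16 and 9.41 in wild-type cells (2.51-fold lower, adjusted p = 3.9e-09). At 8 h it had 8.89, 8.86, 9.10 and 8.91 in Raptor-deficient cells, against 9.75, 9.79, 9.78 and 9.85 in wild-type cells, and at 24 h 9.63, 9.69, 9.96 and 9.83 in Raptor-deficient cells, against 10.44, 10.39, 10.53 and 10.50 in wild-type cells. The groups were separate at all 3 times, and the gap narrowed with stimulation (differences -1.33, -0.85 and -0.69; interaction 0.48 at 8 h, adjusted p = 0.0409, and 0.64 at 24 h, adjusted p = 0.00256). Among the 34 members, 0 of the genotype interactions were positive and called.

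Pitrm1, the protease that degrades cut presequences, moved the other way. It had 5.64, 6.04, 5.16 and 5.99 in unstimulated Raptor-deficient cells, against 4.96, 4.71, 5.17 and 5.05 in wild-type cells, where every value lay under 5.51 (difference 0.73, adjusted p = 0.00491, overlapping groups). After stimulation it was lower, with differences of -0.50 at 8 h and -0.56 at 24 h (interaction -1.23 at 8 h, adjusted p = 0.000577). Stoml2, a scaffold protein that works with the prohibitins, had 7.29, 7.23, 7.34 and 7.35 in Raptor-deficient cells at 8 h, against 7.97, 8.03, 8.09 and 8.00 in wild-type cells, and 7.94, 8.01, 8.17 and 7.92 in Raptor-deficient cells at 24 h, against 8.58, 8.68, 8.63 and 8.62 in wild-type cells. It was lower at both times (-0.72 and -0.62, adjusted p = 3.99e-06 and 8.25e-06) and not called in unstimulated cells (0.01). Romo1, an inner membrane protein of the TIM23 complex, and Timm10b, a small TIM bound to the TIM22 complex, were lower at 8 h (-0.78 and -0.68, adjusted p = 3.95e-05 and 4.32e-05). At 24 h Timm10b was lower too (-0.39, adjusted p = 0.00582), and Romo1 was not called (-0.31, adjusted p = 0.0608). The rhomboid protease gene Parl and Maip1, a partner of the inner membrane protease of Afg3l2, were lower at 8 h (-0.44 and -0.39, adjusted p = 0.000696 and 0.0127) and at 24 h (-0.43 and -0.47, adjusted p = 0.000404 and 0.0019).

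Beside these, the 73 measured mitochondrial ribosomal protein genes had 49 lower and 0 higher at 8 h and 49 lower and 0 higher at 24 h, with medians of -0.42 and -0.41. The 8 subunit genes of the cytosolic CCT chaperonin, which folds proteins outside mitochondria, had 4 lower at 8 h and 2 at 24 h, with medians of -0.38 and -0.20. Over all genes 8.77% were lower and 4.14% higher at 8 h, and 13.1% lower and 8.35% higher at 24 h. The sets were not tested against each other.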

How the data were processed

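RNA of 24 samples was hybridised to Affymetrix HT MG-430 PM arrays. The authors deposited normalized log2 values per probe set, and the submitters' processing notes name RMA and Partek 6.5, with no order or role. RMA aligns arrays to each other, so values show change relative to other genes. Array medians lay between 5.15 and 5.29. The arrays give no counts, so the number of samples limits precision.

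Of 45141 probe sets, 28898 carried 1 gene symbol in the platform table, 551 several and 15692 were not listed there, and the brightest probe set stood for each of 17097 genes. limma 3.58.1 in R 4.3.3 fitted 6 group means over all 24 samples with 18 residual degrees of freedom. The Benjamini-Hochberg adjustment ran within each of 12 comparisons over all genes, with a call at an adjusted p under 0.05. Probe sets were also tested 1 by 1, adjusted over the 28898 with 1 gene symbol. The replicate number was not a term of the main fit.

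The members and lists were chosen with earlier results of these data known. Values of every sample are given for the called member of each role with the largest genotype difference at 8 h and at 24 h and for paired subunits. On data simulated for the 24 h genotype comparison (17097 genes, 200 changed), the fit made 7 false calls. It recovered 29.9% of 1.3-fold, 74.6% of 1.5-fold and 98.5% of 2-fold changes. The real 24 h comparison called 1428 genes higher and 2243 lower, and more changed genes loosen the adjusted cut. The simulated rates therefore do not describe recovery in the real data. Alternatives covered the mean of all probe sets, a filter on dim genes, centring, cyclic loess, an intensity trend, array weights, the replicate block, the comparison's groups alone and each sample left out. Promoters came from RefSeq (GRCm38.p6).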

Additional observations from a re-analysis of the deposited data

Results flagged for a closer look

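An interaction term with an adjusted p under 0.05 in limma was found for 15 members at 8 h and 12 at 24 h. In all of them the change with stimulation was smaller in Raptor-deficient cells. Over all genes, 4.36% were called smaller and 1.94% larger at 8 h, and 8.01% smaller and 5.26% larger at 24 h. In all 33 alternatives, 4 of the 15 calls at 8 h and 6 of the 12 at 24 h held. Timm50 and Hspa9 at 8 h were called in 9 of the 33 each. The values are the rise in Raptor-deficient cells minus that in wild-type cells, on the log2 scale. For outer membrane genes at 8 h they were -0.58 for Tomm5, -0.87 for Tomm70a and -0.63 for Mtx1. In the intermembrane space they were -0.64 for Chchd4, -0.80 for Timm8b and -0.60 for Timm9. The TIM23 channel and motor genes had -0.43 for Timm23, -1.05 for Timm50, -0.64 for Dnajc19, -0.52 for Grpel1 and -0.39 for Hspa9. Genes acting on imported proteins had -0.51 for Pmpcb, -0.90 for Hspe1, -0.58 for Clpp and -0.76 for Phb2.

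At 24 h the outer membrane genes had -0.72 for Tomm70a and -0.55 for Mtx2. Chchd4 had -0.74, Timm8b -0.69 and Timm9 -0.60. The channel and motor genes had -0.37 for Timm23, -1.24 for Timm50, -0.69 for Dnajc19 and -0.41 for Hspa9, and Pmpcb had -0.45, Hspe1 -0.56 and Lonp1 -0.74. The values of Tomm70a, Timm9 and Dnajc19 rest on the brightest probe set, and with the mean of all probe sets they were not called at either time. The 8 h values of Clpp and Timm50 were not called with that mean either.

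Single samples stood apart from the other 3 of their group in 5 of 204 member groups, where chance gives about 1 in 20. They were Tomm22 in Raptor-deficient 24 h replicate 3 (9.03), Afg3l2 in wild-type 8 h replicate 2 (8.32), Phb in wild-type unstimulated replicate 4 (8.49), and Yme1l1 in wild-type unstimulated replicate 3 (8.60) and wild-type 8 h replicate 4 (8.87).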

How the results depend on the processing

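Of 215 called member results, 163 were called the same way in all 33 alternatives, among them 10 of 19 at 8 h and 10 of 17 at 24 h between genotypes. Of the counts in 12 comparisons, 4 moved by over 1.5 times. The single unstimulated call became 0 with array weights, the replicate block, both 24 h replicate 1 samples left out or those groups alone, and ran from 0 to 2 with 1 sample left out. The wild-type count of 8 from 8 h to 24 h became 5 after centring (6 to 9 with 1 sample left out). The count of smaller 8 h responses, 15, became 8 with those groups alone (8 to 18), and the count of 0 for the later step became 2 with array weights (Tomm5 and Hspe1) and 1 with those groups alone (Hspe1). The genotype counts ran from 13 to 22 at 8 h and 13 to 19 at 24 h with 1 sample left out, and were 13 and 14 with cyclic loess and 25 and 23 with array weights. Member counts in alternative settings, in this section and above, are given without the share of all genes called in the same setting. They cannot be read against the shares of the main fit. With the mean of all probe sets, 4 directions turned or reached 0: Timm9 at 24 h (0.02) and Dnajc19 at 24 h (0.09) between genotypes, Dnajc19 from 8 h to 24 h in wild type (-0.20) and Dnajc19 at 8 h in Raptor-deficient cells (0.00), whose further probe sets ran the other way.

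With the replicate block, the counts between genotypes were 0, 19 and 16, and those of the smaller responses 14 and 11. Deviations of same-numbered samples of both genotypes correlated at 0.0162 to 0.251 over 12 pairs, 6 of them over 0.1, and 17 of 24 samples were closest to their own number, a hint from the data that a number may mark a shared source. Replicate 1 of both 24 h groups also shared high Alb (9.11 in Raptor-deficient and 9.02 in wild-type cells). The labels do not state a pairing, and the fit without the block was kept because not every pair was over 0.1. That cut cannot settle whether samples were paired. The causes of the changes between settings were not tested beyond the probe sets named. Probe sets near the dim level of 5.51 carry the least signal.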
